A study of Rattus norvegicus with 2 samples.

Results

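Cluster 8 was a small group of cells from the neonatal rat heart that carried transcripts of the mesothelium and epicardium. Its members were all cells to which the authors' cell table gives cluster number 8, and the authors left the cluster without a cell type ("Uncommented"). It held 70 of 11529 clustered cells in the control library (0.607%, exact Clopper-Pearson interval 0.474 to 0.767) and 81 of 12681 in the LPS library (0.639%, 0.508 to 0.793), or 151 of 24210 cells in all.

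The cells came from hearts of Sprague-Dawley rats aged 1 to 3 days, with males and females pooled. The tissue was digested with trypsin, and a Percoll density gradient was used to enrich intrinsic cardiac adrenergic (ICA) cells, which are catecholamine-producing cells of the heart. The cells were plated and cultured before treatment, so the control levels are those of cultured cells. The control group received saline. The LPS group received lipopolysaccharide, a component of the outer membrane of Gram-negative bacteria, at 1 µg/ml for 2 h. All cells were then detached with trypsin. Each condition gave 1 droplet library (10X Genomics 3′ chemistry, which counts each captured RNA molecule by a unique molecular identifier, UMI), and the deposited files do not say which animal a cell came from. With 1 library per condition no difference between saline and LPS has a replicate check, so no test was made, and every interval below is at 95% and covers counting error only.

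The mesothelium is a sheet of flat epithelial cells that lines the body cavities, and the epicardium is the part of it that covers the heart. Epicardial cells carry the transcription factors Wt1 and Tbx18, make retinoic acid, secrete factors to the underlying muscle, and in development some of them lose their epithelial character and give rise to fibroblasts and mural cells. Mesothelial cells in general respond to bacterial products by secreting chemokines, and they produce regulators of fibrin breakdown.

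The cells of cluster 8 were deeply sequenced. They gave 1111612 UMIs in the control library and 1049919 in the LPS library, with a median of 14882 and 11801 UMIs per cell and 3005.5 and 2701 genes per cell. Mitochondrial transcripts took a median of 3.79% and 3.06% of a cell's UMIs. The libraries shared 194 cell barcodes, of which 0 lay in cluster 8 of the control library and 2 in cluster 8 of the LPS library.

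All 5 markers chosen for the cluster were higher in it than in each of the other 10 clusters, in both libraries. Since the clusters were made from these same genes, this describes the cluster and is not a test of it. *Msln* encodes mesothelin, a surface protein of mesothelial cells, and stood at 431 UMIs per 1000000 UMIs (CPM; exact Poisson interval 393 to 471) in control and 466 (425 to 509) in LPS, against 6.18 and 8.74 in cluster 0, the main fibroblast cluster. *Upk1b*, a uroplakin of epithelial membranes, stood at 71.1 and 64.8 CPM, and *Bnc1*, which encodes the zinc finger protein basonuclin 1, at 55.8 and 39.1 CPM. *Dhrs9*, a dehydrogenase that acts on retinol, stood at 39.6 and 48.6 CPM, and *Ptprz1*, a receptor tyrosine phosphatase, at 23.4 and 22.9 CPM.

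**Figure D1:**
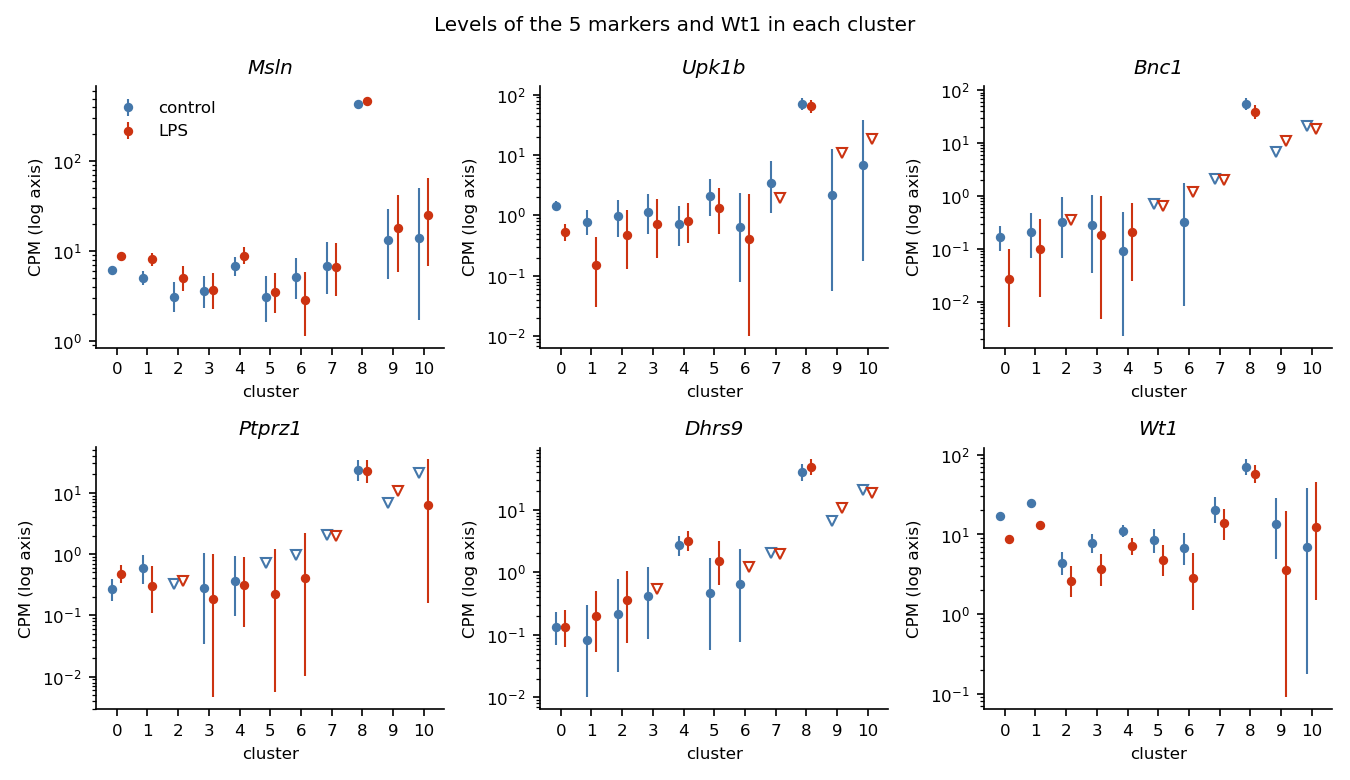
Level of the 5 markers and of *Wt1* in each of the 11 clusters, in CPM on a log axis, for the control (blue) and LPS (red) libraries. Bars are exact Poisson intervals, and open triangles are the limit of 3 UMIs for a count of 0. Cluster 8 is the highest point of every panel in both libraries.

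Many cells of the cluster carried several of these markers. A *Msln* UMI was seen in 95.7% of control and 97.5% of LPS cells of cluster 8, with median depths of 14882 and 11801 UMIs, and in 6.86% and 7.44% of the fibroblasts of cluster 0, with median depths of 12968 and 9821.5. After each cell was thinned to 3000 UMIs the shares were 71.4% and 79.0% in cluster 8 and 1.44% and 2.33% in cluster 0. At this depth at least 2 of the 5 markers were seen in 30.0% of control and 39.5% of LPS cells of cluster 8. Whether free RNA gave the *Msln* UMIs of cluster 0 was not tested. At least 3 of the 5 markers were seen in 41 of 70 control and 39 of 81 LPS cells. Among the other cells this was so for 0 of 11459 in control and 2 of 12600 in LPS, both in the endothelial cluster 4. No marker was seen in 0 control cells and 2 LPS cells of cluster 8.

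The 15 leading genes, those with the highest ratio of their level in cluster 8 to that in all other control cells, went beyond the chosen markers. All 5 markers were among them. The first was *Nkain4*, which encodes a protein that interacts with a sodium pump subunit, with 74.5% of all its UMIs in the control library lying in these 70 cells. *Fam25a* (65.9% of UMIs), *Plac8* (31.6%), *Plet1* (31.6%) and *Wfdc21* (27.6%) followed the same pattern. *Serpinb2*, which encodes plasminogen activator inhibitor 2, had 28.3% of its control UMIs in the cluster. *Alox15*, a lipoxygenase, was 38.4-fold and *Cobl*, an actin nucleator, 35.5-fold above the other cells. In the LPS library some of these values were lower, with *Serpinb2* at 7.67% and *Plet1* at 12.0% of UMIs, and *Cobl* at 15.4-fold. Others were higher, with *Fam25a* at 71.0% of UMIs and *Alox15* at 58.0-fold. These values also depend on the level in the other cells. *Alox15* stood at 39.6 CPM in control and 12.4 in LPS in cluster 8, beside 1.03 and 0.213 in the other cells. *Serpinb2* stood at 60.3 and 421 CPM, beside 1.12 and 42.1.

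Of the epicardial transcription factors, *Wt1* and *Tbx18* were highest in cluster 8 of all clusters in both libraries. *Wt1* stood at 70.2 CPM in control and 58.1 in LPS, 4.38-fold above the other control cells. *Tbx18* stood at 149 and 77.1 CPM, 3.09-fold above the other control cells. *Bnc2* (4.04-fold) was also higher, whereas *Tcf21*, a factor of epicardial cells and fibroblasts, stood at 0.317 of the level of the other control cells. Further members were highest elsewhere in control. *Gata4* and *Gata5* were highest in cluster 3 (88.7 and 19.2 CPM, against 72.0 and 10.8 in cluster 8). *Hand2* was highest in cluster 5 (10.6 against 6.30) and *Tbx20* in cluster 7 (5.48 against 2.70). *Gata6* was highest in cluster 9 (15.6 against 6.30), from 7 UMIs in each of these clusters. In LPS *Hand2* was highest in cluster 8, at 11 UMIs.

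Genes of retinoic acid synthesis were among the transcripts of the cluster. *Aldh1a2*, the main retinaldehyde dehydrogenase of the epicardium, had 62 UMIs in control and 54 in LPS and was 5.91-fold above the other control cells. *Aldh1a3*, a related enzyme, had 44 and 32 UMIs and was 23.3-fold above them. *Aldh1a1* had 0 UMIs in both libraries. The 23 epicardial secreted factors as a list summed to 759 CPM in control and 653 in LPS. In control this lay below clusters 0 (912) and 2 (930) and above clusters 3 (567), 4 (551) and 6 (309), and *Fgf2*, *Fgf10*, *Bmp3* and *Sfrp5* had 0 UMIs in both libraries. Single members were higher, such as *Rspo1*, a potentiator of Wnt signalling, at 21.3-fold and *Slit3*, a guidance ligand, at 4.58-fold above the other control cells.

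The epithelial features of the cluster were partial. *Krt8* and *Krt18*, which encode the paired keratins of simple epithelia, had 21 and 17 UMIs in control and were 10.8-fold and 48.3-fold above the other cells. *Krt19*, *Cdh1*, *Epcam*, *Cldn3* and *Cldn4* had 0 UMIs in both libraries, so that these epithelial genes were not detected at this depth, *Krt19* among them although mesothelia are known to carry it. Of 8 genes of other epithelia, 0 had a UMI in control and 1 in LPS (*Krt14*, 1 UMI). *Upk3b* (2 and 5 UMIs), *Lrrn4* (1 and 0) and *Calb2* (1 and 0), which are used as mesothelial markers in other tissues, were at the edge of detection. Further members of the list of mesothelial surface and coat genes did not have their highest level in the cluster. *Muc1*, a membrane mucin, had 0 UMIs in both libraries. *Itln1*, which encodes intelectin 1, had 1 and 0 UMIs, or 0.900 CPM in control against 2.79 in the other control cells. *Podxl*, which encodes podocalyxin, stood at 8.10 CPM in control and 0.952 in LPS, against 7.04 and 5.54 in the other cells. *Prg4*, which encodes the lubricant proteoglycan 4, stood at 8.10 CPM in control, below clusters 2 (25.3) and 5 (22.8). Over 8901 genes of the control library, the Pearson correlation of the profile was 0.939 with cluster 0, 0.938 with cluster 1 and 0.923 with cluster 7, all fibroblasts. It was 0.912 with cluster 2, 0.878 and 0.861 with the endothelial clusters 5 and 4, and 0.819 with macrophages, so that all these profiles were alike to a large extent. These correlations are across genes of the same library and are descriptions.

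Markers of other cell types were lower in cluster 8 than in the clusters of those types. The 9 fibroblast markers summed to 4858 CPM in control and 3954 in LPS, which is 40.8% and 36.3% of their level in cluster 0. All 9 had UMIs, and *Col1a1*, a chain of type I collagen, was the most abundant. By comparison the same list summed to 3349 CPM in the endothelial cluster 4 and 3973 CPM in the macrophages of cluster 6 in the control library. The 8 cardiomyocyte markers summed to 403 and 245 CPM, 2.83% and 1.67% of their level in cluster 3. The 10 macrophage markers gave 14 UMIs in control and 5 in LPS, 0.607% and 0.290% of their level in cluster 6, and *Ptprc*, *Msr1* and *Cd163* were at 0 in both libraries. Endothelial markers stood at 4.85% and 3.76% of their level in cluster 4, and mural markers at 7.30% and 5.91% of their level in cluster 2. Schwann and glial markers gave 11 and 3 UMIs, and erythroid and lymphoid markers 5 and 5.

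**Figure D2:**
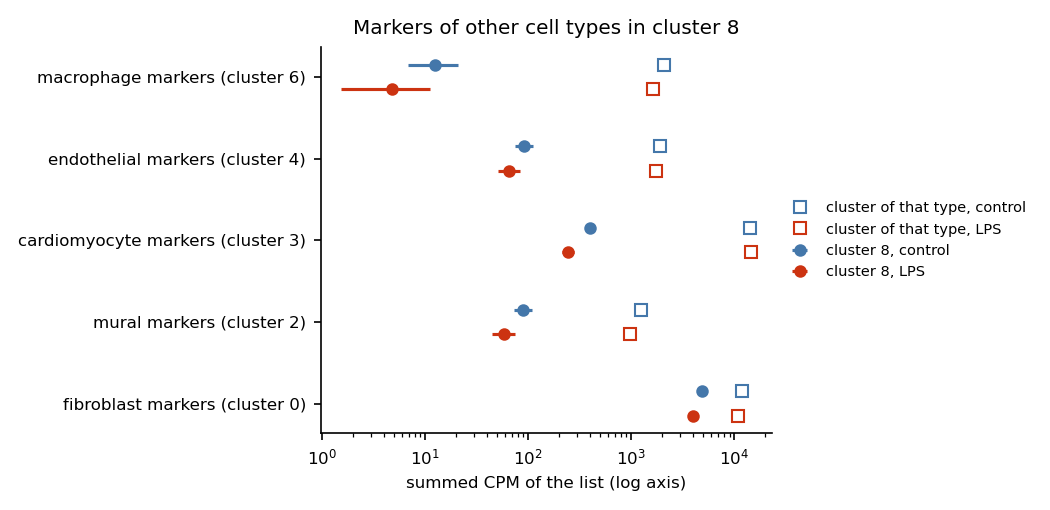
Summed level of 5 marker lists in cluster 8 (filled circles, with exact Poisson intervals) and in the cluster of the cell type that each list marks (open squares), in CPM on a log axis, for control (blue) and LPS (red). Macrophage markers lie at 12.6 and 4.76 CPM in cluster 8, and fibroblast markers come closest to the cluster they mark.

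Cells with cell cycle transcripts were more frequent than among the main fibroblasts. After thinning to 3000 UMIs per cell, at least 2 of 10 cell cycle genes were seen in 22.9% (13.7 to 34.4) of control and 24.7% (15.8 to 35.5) of LPS cells of cluster 8. The shares were 5.65% and 4.16% in cluster 0, and 66.6% and 66.3% in cluster 1, a fibroblast cluster rich in these transcripts. Before thinning the shares in cluster 8 were 57.1% and 55.6%. None of the 7 cell cycle genes with at least 50 UMIs differed 2-fold between saline and LPS.

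The LPS and control libraries were compared over 3950 genes with at least 50 UMIs in cluster 8 over both libraries. Of these, 98 (2.48%) were at least 2-fold higher in the LPS library and 66 (1.67%) at least 2-fold lower, and the median log2 ratio was -0.00. These shares are the background for each count of list members below. With lists of at most 12 counted genes, a single call is not read as a result about the list. The minimum is on the sum of both libraries, so some members, such as *Ccl4* (1 and 71 UMIs), were counted only through their LPS UMIs. This can raise the share of counted members that were higher, so such shares are descriptions only. The balance of the directions depended on the minimum. With at least 20 UMIs, 231 genes were higher and 283 lower, and with at least 100 UMIs, 33 were higher and 17 lower, so neither direction can be said to be the commoner one. Among the genes counted as lower, *Fcrla* (66 UMIs in control, 0 in LPS) lay in 2 control cells and *Ly6d* (53 and 0) in 1 control cell.

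**Figure D3:**
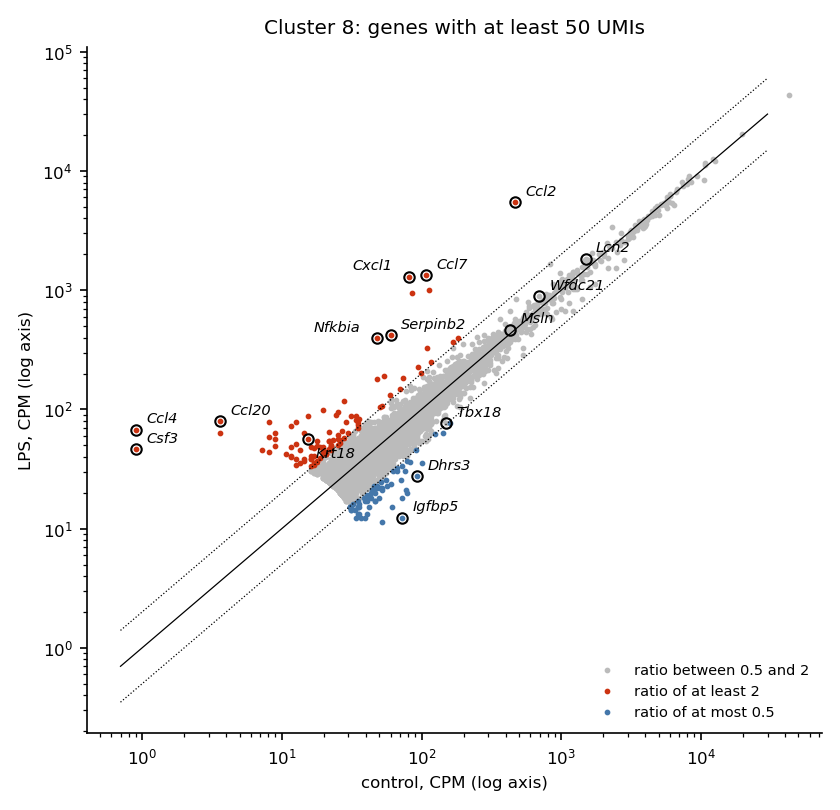
Level of each gene with at least 50 UMIs and a UMI in both libraries, in cluster 8 of the control library (x axis) and of the LPS library (y axis), in CPM on log axes. The solid line marks equal levels and the dotted lines a ratio of 2 in either direction. *Ccl2*, *Ccl7*, *Cxcl1*, *Nfkbia* and *Serpinb2* lie above the upper dotted line, with ratios of 6.98 or more, and *Msln* lies on the line of equality.

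Chemokine genes had the highest median log2 ratio of the 29 gene lists. Of 12 counted, 9 were at least 2-fold higher with LPS and 0 lower, with a median log2 ratio of 3.34, against 2.48% of all genes counted. *Ccl2*, which attracts monocytes, had 517 UMIs in control and 5753 in LPS (465 and 5479 CPM, ratio 11.8, 10.8 to 12.9). *Ccl7*, which also attracts monocytes, had 120 and 1402 UMIs (ratio 12.4). The neutrophil attractants *Cxcl1* (90 and 1366 UMIs, ratio 16.1), *Cxcl3* (95 and 999, ratio 11.1) and *Cxcl6* (126 and 1053, ratio 8.85) were also higher. *Ccl20*, which attracts cells bearing the receptor CCR6, had 4 UMIs in control and 84 in LPS (ratio 22.2, 8.37 to 83.5). These lay in 2 control and 24 of 81 LPS cells, and the 8 cells with the most held 73.8% of its LPS UMIs. Chemokine genes of similar sequence can share reads, so the split between neighbours such as *Cxcl1* and *Cxcl3* is less certain than their common direction.

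Some chemokine transcripts were far more abundant in macrophages. *Ccl4* (1 UMI in control, 71 in LPS) and *Ccl3* (9 and 82) reached 0.579% and 0.364% of the LPS level of cluster 6, and *Cxcl2* (1 and 42) reached 0.595%. *Il1b*, at 0 and 21 UMIs, reached 0.253%. The macrophage markers stood at 0.290% of their level in cluster 6 in the same library, with single members between 0% and 2.96%. Whether free RNA from macrophages gave these UMIs was not tested. *Ccl2* reached 37.2%, *Cxcl6* 178% and *Ccl20* 140% of the macrophage level. In the LPS library the 18 chemokine genes summed to 10931 CPM in cluster 8. They summed to 14808 CPM in cluster 0, 19606 in cluster 2, 4532 in cluster 3, 11287 in cluster 4 and 97970 in cluster 6. After thinning, a *Cxcl6* UMI was seen in 72.8% of LPS cells of cluster 8, 87.1% of cluster 0, 51.1% of cluster 4 and 51.7% of cluster 6.

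The stretches of sequence just before the start of 4 of these genes are shown because each holds the spelling GGGANNTTC, part of one form of the binding motif of the transcription factor NF-κB. The 250 bases before the start were searched on both strands, in RefSeq promoters of build GRCr8, with the spelling chosen once these sequences were known. Of the 15 genes with the highest ratios, 8 were in the table and 4 of them held it. Of the 15 with the lowest ratios, 7 were in the table and 1 held it (*Dhrs3*). It was found in 1126 of 33469 promoters (3.36%). Since the spelling was chosen on these genes, the counts describe them and are no comparison with other promoters. Below are the last 120 bases before each start, read 5′ to 3′ on the gene's strand, with the matching bases in capitals. They lie at chr10:67513975-67514094 (plus strand) for *Ccl7*, at chr14:17479322-17479441 (minus) for *Cxcl1*, at chr14:17596418-17596537 (minus) for *Cxcl6* and at chr6:78597073-78597192 (minus) for *Nfkbia*.
Ccl7: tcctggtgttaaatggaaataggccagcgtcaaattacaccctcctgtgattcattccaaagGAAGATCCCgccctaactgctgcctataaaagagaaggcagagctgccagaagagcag
Cxcl1: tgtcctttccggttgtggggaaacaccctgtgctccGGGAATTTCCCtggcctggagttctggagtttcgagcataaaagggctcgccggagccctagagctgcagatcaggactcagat
Cxcl6: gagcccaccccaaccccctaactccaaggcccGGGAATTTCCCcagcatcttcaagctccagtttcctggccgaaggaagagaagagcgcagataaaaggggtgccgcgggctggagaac
Nfkbia: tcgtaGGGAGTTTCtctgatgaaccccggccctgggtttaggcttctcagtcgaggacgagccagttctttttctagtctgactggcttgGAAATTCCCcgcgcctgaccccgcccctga
In *Cxcl1* and *Cxcl6* the capitals cover 2 overlapping matches, 1 on each strand, that begin 84 and 88 bases before the start, and in *Nfkbia* they cover 2 separate matches. A match describes the letters and does not show that the factor bound there.

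Most counted subunit and feedback genes of NF-κB were higher. All 16 members of the list, counted or not, summed to 451 CPM in control and 1401 in LPS. Of 9 counted, 8 were at least 2-fold higher and 0 lower, against 2.48% and 1.67% of all genes counted, with a median log2 ratio of 1.57. *Nfkbia*, which encodes the inhibitor that holds NF-κB in the cytoplasm, had 53 UMIs in control and 417 in LPS (ratio 8.33, 6.25 to 11.3). The subunit genes *Nfkb1* (27 and 94 UMIs, ratio 3.69) and *Nfkb2* (13 and 51, ratio 4.15) and *Zc3h12a*, an RNase that degrades cytokine transcripts (14 and 54, ratio 4.08), were higher. *Rela* had 34 and 47 UMIs, with a ratio of 1.46 (0.922 to 2.35).

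*Tlr4*, the receptor for LPS, had 0 UMIs in cluster 8 of both libraries. A count of 0 here limits UMIs and does not show that the receptor was absent. Of 4 LPS sensing genes counted, 2 were higher, against 2.48% of all genes counted. These were *Tlr2*, a receptor for bacterial lipoproteins (9 and 46 UMIs, ratio 5.41, 2.62 to 12.6), and *Irak3*, which restrains Toll-like receptor signalling (12 and 44, ratio 3.88, 2.02 to 8.07). The adaptor *Myd88* had 39 and 30 UMIs.

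*Tnf* had 0 UMIs in both libraries and *Il6* 0 and 1. Of the cytokine genes only *Csf3* and *Csf1* reached 50 UMIs. *Csf3*, which encodes the growth factor of neutrophils, had 1 UMI in control and 49 in LPS (ratio 51.9, 8.89 to 2090). After thinning, a *Csf3* UMI was seen in 14.8% of LPS cells of cluster 8 and 78.6% of the macrophages of cluster 6. The shares were 8.12% in cluster 0 and 10.7% in cluster 4. Whether free RNA gave the *Csf3* UMIs of cluster 8 was not tested. *Csf1*, the macrophage growth factor, had 45 and 73 (ratio 1.72, 1.17 to 2.55).

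*Serpinb2* was both a leading gene of the cluster and higher with LPS. It had 67 UMIs in control and 442 in LPS (60.3 and 421 CPM, ratio 6.98, 5.39 to 9.17), and cluster 8 had the highest level of all clusters in both libraries. Its LPS level was 731% of that in cluster 0, where the ratio was 42.0 from a lower start. *Plat*, the tissue plasminogen activator, had 75 and 76 UMIs.

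Some adhesion, prostaglandin and interferon-response genes were at least 2-fold higher as well, against 2.48% of all genes counted. With 3 or 4 genes counted per list, the counts are not read as results about the lists. Of 4 adhesion genes counted, 2 were higher, *Vcam1* (10 and 66 UMIs, ratio 6.99) and *Icam1* (17 and 93, ratio 5.79), which bind leukocytes. The other two, the integrin gene *Itgb1* (ratio 0.960) and the hyaluronan receptor gene *Cd44* (ratio 1.86), were not called. Of 3 prostaglandin and nitric oxide genes counted, 2 were higher, *Ptges* (13 and 76, ratio 6.19) and *Ptgs2* (10 and 52, ratio 5.51), enzymes of prostaglandin E2 synthesis. The phospholipase gene *Pla2g2a* fell just short, at 923 and 1743 UMIs (ratio 2.00, 1.84 to 2.17). Of 16 interferon-response genes only 3 were counted, and all 3 were higher, *Isg15* (31 and 123, ratio 4.20), *Cxcl10* (39 and 78, ratio 2.12) and *Gbp2* (20 and 38, ratio 2.01), the last 2 of them close to the 2-fold limit. Of the control UMIs of *Cxcl10*, 24 lay in 1 cell, and without the cell with the most UMIs in each library its log2 ratio was 2.12 in place of 1.07. *Tnfaip6*, which encodes a hyaluronan-binding protein, was the only 1 of 4 hyaluronan genes counted that was called (10 and 59, ratio 6.25).

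Several other lists held no called gene, and with 2.48% of all genes counted higher and 1.67% lower, a count of 0 among so few genes does not set a list apart. None of 5 complement and antimicrobial genes was called, although *Lcn2*, which encodes an iron-scavenging antimicrobial protein, was at 1498 and 1835 CPM. None of 9 oxidative stress genes, 8 mesenchymal transition genes or 6 basement membrane genes was called. Of 8 immediate early genes, *Junb* (ratio 2.21) and *Myc* (ratio 2.51) were higher and *Fos* (44 and 19 UMIs, ratio 0.457) was lower.

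The keratins were higher with LPS, in a minority of cells. *Krt18* had 17 UMIs in control and 59 in LPS (ratio 3.67, 2.11 to 6.72), and *Krt8* had 21 and 51 (ratio 2.57, 1.52 to 4.50). They were 2 of 7 keratin and junction genes counted, against 2.48% of all genes counted. A *Krt18* UMI was seen in 12 of 70 control and 19 of 81 LPS cells, and the 8 cells with the most held 74.6% of its LPS UMIs. A *Krt8* UMI was seen in 10 of 70 control and 17 of 81 LPS cells. The 8 cells with the most held 80.4% of its LPS UMIs, and 1 of them held 33.3%.

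Before thinning, none of the 5 markers of the cluster differed 2-fold between the libraries. The 5 summed to 621 CPM in control and 641 in LPS, and the ratio of *Msln* was 1.08 (0.951 to 1.23). Of 6 mesothelial surface genes counted, 1 was lower, against 1.67% of all genes counted, namely *Nkain4* (41 and 13 UMIs, ratio 0.336, 0.165 to 0.639). After each cell was thinned to 3000 UMIs it fell just short of 2-fold, with a UMI in 8 control and 5 LPS cells, and none of the 6 genes was called. None of 6 epicardial transcription factors was called, with a median log2 ratio of -0.39, and *Tbx18*, at 166 and 81 UMIs, had a ratio of 0.517 (0.391 to 0.678), close to the 2-fold limit. The result changed with thinning, and the cause of the change was not tested. After each cell was thinned to 3000 UMIs, *Tbx18* was seen in 42.9% (31.1 to 55.3) of control and 16.0% (8.83 to 25.9) of LPS cells. The marker *Bnc1* was seen in 14.3% (7.07 to 24.7) and 6.17% (2.03 to 13.8), with overlapping intervals. The thinned ratios of both were past 2-fold lower. Thinned shares of the other markers were 71.4% and 79.0% for *Msln*, 14.3% and 22.2% for *Upk1b*, 4.29% and 7.41% for *Ptprz1*, and 12.9% and 12.3% for *Dhrs9*. *Rspo1* had 123 and 59 UMIs, with a ratio of 0.508 (0.366 to 0.698).

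Some genes with the lowest ratios were seen, after thinning, in a larger share of control cells of cluster 0 than of cluster 8. *Lrrc17* was seen in 34.7% of control and 7.23% of LPS cells of cluster 0, beside 14.3% and 3.70% in cluster 8. For *Cd248* the shares were 30.5% and 11.6%, beside 22.9% and 3.70%, and for *Prrx2* 32.8% and 16.2%, beside 10.0% and 8.64%. Others, such as *Alox15* (0.394% and 12.9% of control cells), were seen in a smaller share of cluster 0. *Igfbp5*, which binds insulin-like growth factors, had 81 UMIs in control and 13 in LPS (ratio 0.170, 0.0868 to 0.307). *Dhrs3*, which turns retinaldehyde back into retinol, had 103 and 29 (ratio 0.298, 0.190 to 0.454) and was the only one of 7 retinoid genes called, against 1.67% of all genes counted. *Bambi*, a pseudoreceptor of the TGF-β family, had 88 and 21 (ratio 0.253), and *Cdkn1c*, a cell cycle inhibitor, had 112 and 37 (ratio 0.350). *Alox15*, a leading gene of the cluster, had 44 and 13 (ratio 0.313, 0.155 to 0.591). Fibroblast markers summed to a lower level in the LPS library as well. Of 8 counted, *Dpt* was lower (92 and 38) and *Pdgfra* higher (58 and 112), against 1.67% and 2.48% of all genes counted. The part of fibroblast RNA in these differences was not tested.

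The ratios of the 30 genes with the most extreme ratios in cluster 8 were set beside those in fibroblasts (cluster 0), endothelial cells (cluster 4) and macrophages (cluster 6). Of those with at least 50 UMIs, 28 of 29 lay on the same side of 1 in cluster 0 as in cluster 8, all but *B4galt6*. The same held for 27 of 28 in cluster 4, all but *LOC686087*, and for 26 of 26 in cluster 6. These clusters come from the same libraries, the differences between them were not tested, and the genes given here were chosen after their values were seen. *Serpinb2* had a lower ratio in cluster 8 than in cluster 0 (6.98 against 42.0), from a higher control level, and so had *Ccl20* (22.2 against 122). *Nppb*, which encodes brain natriuretic peptide, had 8 UMIs in control and 48 in LPS in cluster 8 (ratio 6.35, 2.98 to 15.5), beside a ratio of 1.43 in cluster 0 and 1.41 in cluster 4. Its level was highest in cluster 3, which the authors labelled as ICA cells and cardiomyocytes. It stood there at 149 CPM in control and 253 in LPS, against 7.20 and 45.7 in cluster 8. The 8 cells with the most held 79.2% of its LPS UMIs in cluster 8. Cardiomyocyte markers summed to 403 CPM in control and 245 in LPS, but this difference leaned on few control cells. Of the 160 control UMIs of *Tnnt2*, the most abundant of them, 72 lay in 1 cell, and without the cell with the most UMIs in each library its log2 ratio was 0.0660 in place of -0.70. The part of cardiomyocyte RNA in the *Nppb* level was not tested. *B4galt6*, a glycosphingolipid-synthesizing enzyme, had 68 and 16 UMIs (ratio 0.249, 0.135 to 0.434), beside 1.01 in cluster 0 and 0.648 in cluster 4. In cluster 6 it was lower with LPS as well, with a UMI after thinning in 23.5% of control and 15.2% of LPS cells.

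**Figure D4:**
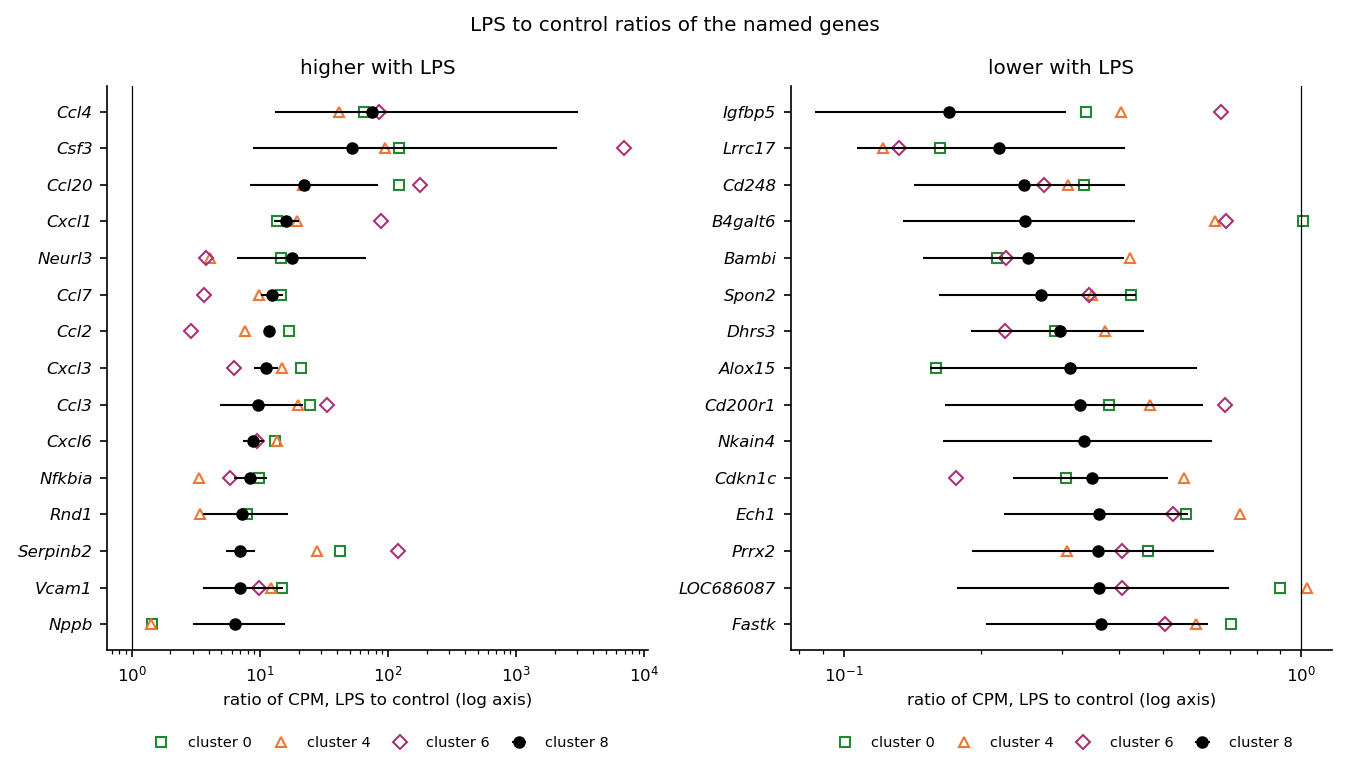
Ratio of LPS to control level, on a log axis, for the 15 genes with the highest and the 15 with the lowest log2 ratio in cluster 8 (black, with exact conditional intervals), beside clusters 0, 4 and 6 (open symbols, shown where the gene had at least 50 UMIs). *Nppb* and *B4galt6* lie further from 1 in cluster 8 than in cluster 0, where their ratios were 1.43 and 1.01, and *Serpinb2* lies closer to 1 in cluster 8 than in cluster 0 (42.0).

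The levels of *Ccl2* and *Cxcl1* were also compared cell by cell. Every LPS cell of the cluster had a *Ccl2* UMI, with 11.8 to 127 UMIs per 10000 (median 48.9), whereas control cells ranged from 0 to 25.3 (median 2.46). *Cxcl1* was seen in 80 of 81 LPS cells and in 41 of 70 control cells. Such shares were not particular to the cluster. After thinning to 3000 UMIs, *Ccl2* was seen in 100% of LPS cells of cluster 8, 100% of cluster 0, 99.7% of cluster 4 and 100% of cluster 6. For *Cxcl1* the shares were 91.4%, 98.0%, 82.4% and 99.3%. How much of this came from free RNA was not tested, and the shares do not show how many cells made these transcripts. The 2 genes went together among LPS cells (Spearman 0.55 over 81 cells, on levels from the same library). *Serpinb2* was seen in 65 of 81 LPS cells, and 8 of them held 41.9% of its UMIs. *Slpi*, an inhibitor of leukocyte proteases, was uneven, with 447 of 1186 control UMIs in 1 cell, and its log2 ratio of -0.02 was 0.31 without the cell with the most UMIs in each library.

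**Figure D5:**
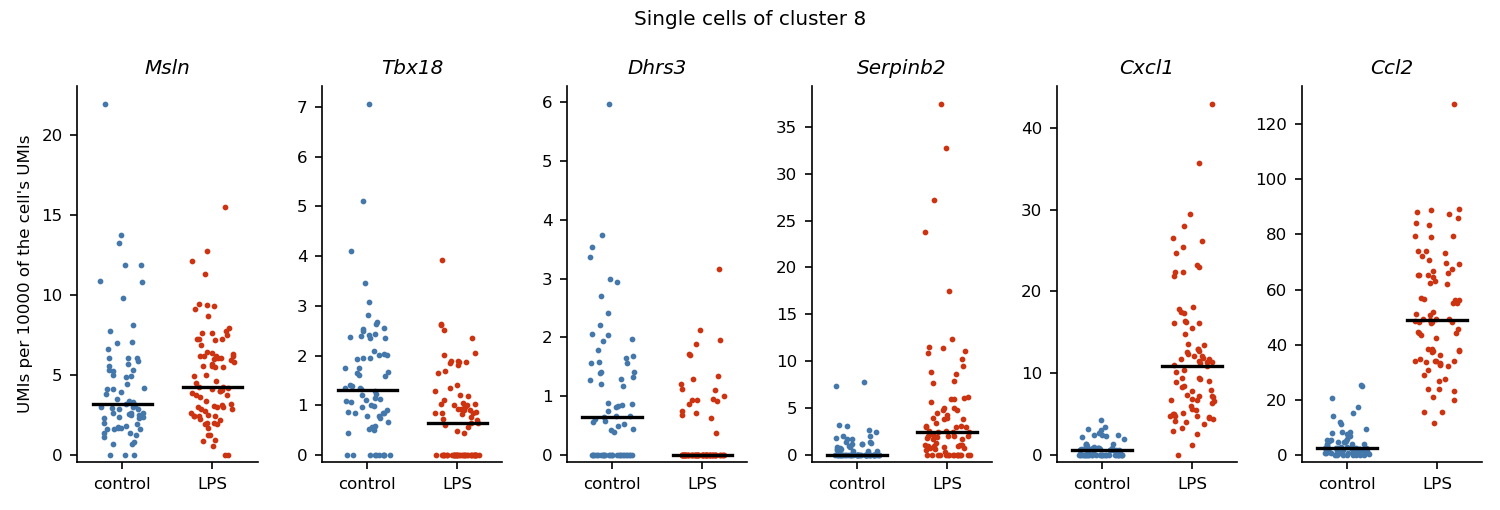
UMIs per 10000 UMIs of the cell for 6 genes, with each point a cell of cluster 8 and the black line the median, in control (70 cells, blue) and LPS (81 cells, red). The groups overlap widely for *Msln*, *Tbx18* and *Dhrs3*, while for *Ccl2* the LPS median of 48.9 lies above the highest control cell at 25.3.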

How the data were processed

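The authors deposited, for each of the 2 libraries, raw UMI counts per gene and cell barcode and a table of clusters and cell types. The submitters' processing notes name Cell Ranger 2.2.0 and Seurat 2.3.4. The genome build is not given in the sources used here. The clusters were made on both libraries together, so genes that respond to LPS took part in them.

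Counts of the 25399 gene identifiers were summed over the cells of each cluster and library and divided by the summed UMIs, per 1000000 (CPM). Intervals are exact Poisson (levels), exact conditional (ratios) and Clopper-Pearson (shares), at 95%. Log2 ratios had 0.5 UMI added to each sum. Where no UMI was seen, 3 UMIs served as the upper limit. No cell filter or doublet caller was used, and alternatives left out cells with the most UMIs or fibroblast transcripts. Cells without a cluster (2 control, 8 LPS) were left out. For comparisons of shares, 3000 UMIs per cell were drawn without replacement.

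Named genes were the 5 markers, list members with the most UMIs or the largest ratios, the 15 highest and 15 lowest log2 ratios among genes with at least 50 UMIs and a UMI in 10% of the cells of a library, and the 15 leading genes among those in 25% of control cells; other list members named were chosen after their values were seen. A gene of the coagulation and plasminogen list is not reported here, and no count is given for that list. Members and the 29 gene lists were chosen with earlier results of these data known. The minimum of 50 UMIs is on the sum of both libraries, and a gene that is lower with LPS can drop below it where a gene that is higher does not. A longer spelling of the promoter motif, with a further C at its end, was tried first. The calls and intervals were run on simulated sums drawn with counting error alone, which is what the intervals assume. Such data hold no spread between cells, so the run checks the code and not how well the intervals fit these cells. There, genes raised with LPS were all called, whereas many lowered genes fell under the minimum of 50 UMIs and were lost; those that passed it were called. The counts of higher and lower genes are therefore not comparable as they stand. Python 3.11.15, numpy 2.4.6, scipy 1.17.1, pandas 2.3.3 and matplotlib 3.10.9 were used.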

Additional observations from a re-analysis of the deposited data

How the results depend on the processing

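With 1 library per condition, differences in handling or depth cannot be told apart from LPS. No paired analysis was possible because there is no second library to pair. The 98 higher and 66 lower genes became 231 and 283 with a minimum of 20 UMIs, 33 and 17 with 100, 275 and 278 at a fold of 1.5, 38 and 11 at a fold of 3, and 344 and 286 after thinning each cell to 3000 UMIs, where most genes have few UMIs left. Cells chosen by at least 3 of 5 markers (41 control and 41 LPS) gave 60 and 40, and leaving out the 25% of cells richest in fibroblast transcripts gave 63 and 48. All 30 genes with the most extreme ratios kept their direction in all 11 alternatives for ratios, and all 15 higher ones stayed past 2-fold; of the lower ones *Nkain4*, *Ech1* and *Prrx2* did not after thinning, nor *Prrx2*, *LOC686087* and *Fastk* in the marker-chosen cells. Of 1650 recomputed log2 ratios of 150 genes, 78 changed sign, in 48 genes. Of these, 63 were of ratios whose counting interval held 1, *Wt1*, *Tcf21* and *Bnc2* among them, and 15 were of ratios whose interval excluded it. After thinning the latter were *Ezr* (0.0789), *Jup* (0.31), *Tagln* (-0.0205), *Bmp4* (0.23), *Ccl5* (0.75) and *Pln* (0.87). In the marker-chosen cells they were *Postn* (0.15) and *Ccl5* (0.88), and without the fibroblast-rich cells *Ccl5* (0.45). With cells of at least 1000 genes and under 10% mitochondrial UMIs they were *Tnnt2* (0.14), *Myh6* (0.25) and *Myh7* (0.0599). Without the cell with the most UMIs of the gene, an alternative added after seeing the data, they were *Ccl5* (0.0196), *Tnnt2* (0.0660) and *Myh6* (0.0824). The causes were not tested. Requiring a UMI in 10% of the cells of a library, also added after seeing the data, left 98 higher and 64 lower.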
